A study of Homo sapiens with 6 samples.

Results

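The 9 genes described here encode hydrolases and sulfatases that take apart glycosaminoglycans and related sulfated glycans: GUSB, IDUA, IDS, SGSH, NAGLU, GALNS, ARSB, ARSA and ARSL. They were chosen by name, and each array row was assigned to a gene through the RefSeq transcript at the start of its identifier. All 9 were measured, by 12 probe sets out of 1259 in the table, where 927 genes were named. ARSB had 3 probe sets, IDS had 2 and the other 7 genes had 1 each. Both cell populations compared came from RKO, a widely used line of human colon cancer cells. RKO C2 F3 cells were sorted out of RKO C2 for little u-PAR, the urokinase receptor, and every F3 sample title calls them clonal, a word the series' design text uses for C2 and not for F3. RKO C2, the parent, is itself 1 clone of RKO, so both stand for a single clonal lineage. Each population was measured on 3 arrays, numbered 1 to 3 in both, with a title suffix shared by arrays of the same number, and no treatment, genotype or time is given. The study asked which enzyme of glycosylation is deficient in the F3 cells.

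Most glycosaminoglycans are long sulfated sugar chains carried by proteoglycans. In the lysosome they are largely broken down from the non-reducing end, one sugar or one sulfate at a time. The enzymes of this order each need the previous one to have acted. Exoglycosidases such as GUSB, IDUA and NAGLU remove sugars, and sulfatases such as IDS, SGSH, GALNS and ARSB remove the sulfates that block them. Sulfatases become active only after a cysteine in their active site is turned into formylglycine in the endoplasmic reticulum, and most of the enzymes reach the lysosome by a mannose 6-phosphate tag on their N-glycans. Inherited loss of any of GUSB, IDUA, IDS, SGSH, NAGLU, GALNS or ARSB causes a mucopolysaccharidosis, in which undegraded chains are stored. ARSA and ARSL belong to the same sulfatase family but stand apart: ARSA is the lysosomal sulfatase of sulfatide, a glycolipid, and ARSL is a sulfatase of the Golgi and not of the lysosome.

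None of the 12 probe sets differed between F3 and C2 in limma after Benjamini-Hochberg adjustment over the whole table, where 0.0794% of probe sets, 1 of 1259, passed the threshold of 0.05. The smallest adjusted p among the 12 was 0.84 in this fit and 0.47 with the replicate number as a block. At an unadjusted p under 0.05 stood 2 of the 12, GUSB and 1 ARSB probe set, both lower in F3, where 3.49% of all probe sets were lower and 1.91% higher by that rule. In the fit that blocks on replicate number 3 of the 12 stood there, the IDS probe set on NM_000202 being the third and all lower in F3, where 5.48% of all probe sets were lower and 2.54% higher. The 12 log2 changes, F3 minus C2, ran from -0.28 for an IDS probe set to 0.09 for IDUA. Their median absolute size was 0.066, beside 0.047 over all probe sets, and 1 of the 12 lay beyond the 95th percentile of 0.17 over the table. With the brightest probe set of each gene, the median of the 9 changes was -0.063, beside -0.0064 over all probe sets, and it was 0.0027 after quantile normalization was repeated and -0.000705 without F3 replicate 1. For 11 of the 12 probe sets the 95% interval of the change lay inside a 1.5-fold change in either direction, and its bounds lay between -0.32 and 0.30 on the log2 scale. The exception was the IDS probe set with the larger change, whose interval reached -0.59.

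**Figure D1:**
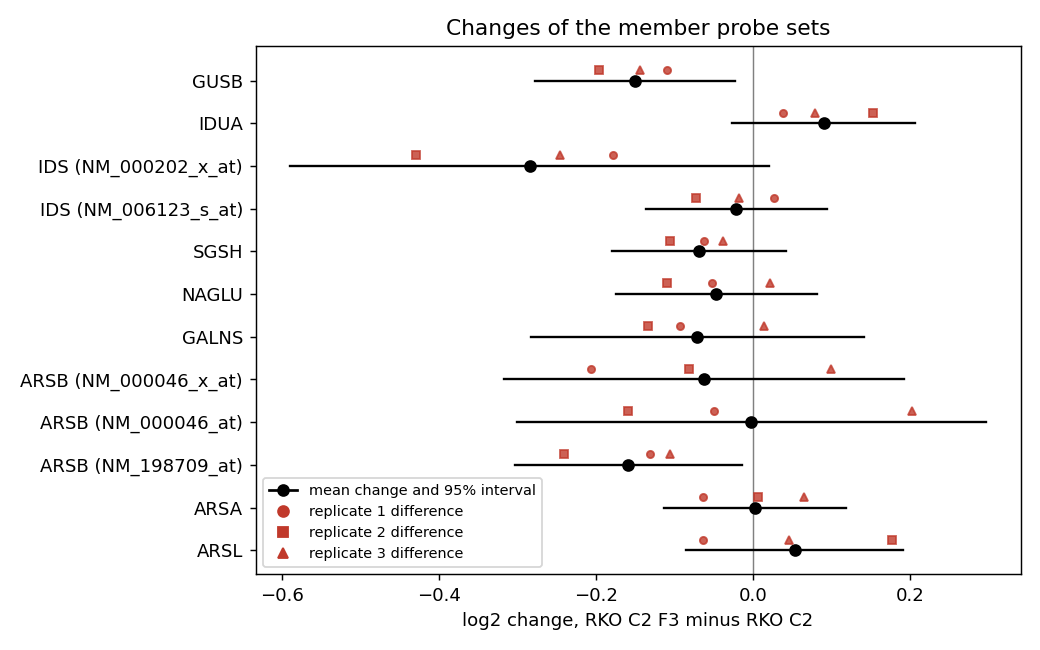
Log2 change, F3 minus C2, of each of the 12 probe sets, with the 95% interval from limma (black) and the differences between arrays of the same replicate number (red). Only GUSB and the third ARSB probe set have intervals that do not reach 0, and 3 of the 12 mean changes are above 0.

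**Figure D2:**
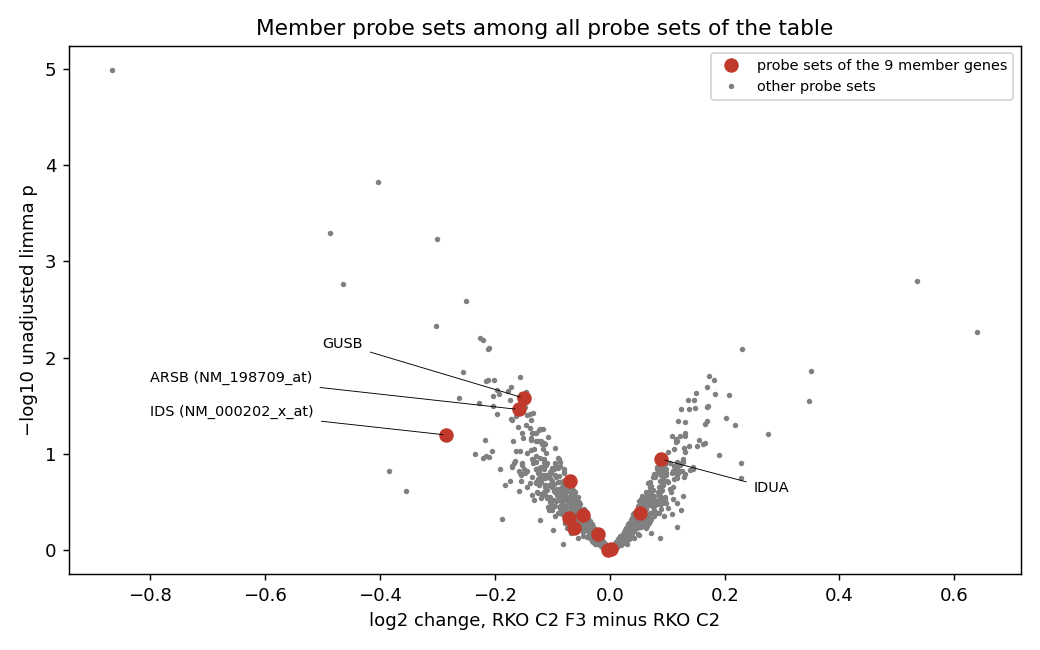
Unadjusted limma p, as -log10, against log2 change for all 1259 probe sets, with the 12 probe sets of the 9 genes in red. Of the 12 red points 11 lie within the cloud of other probe sets, and IDS, at -0.28, lies at its left edge.

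The 3 F3 arrays lay entirely below the 3 C2 arrays for 3 of the 12 probe sets, where 6.51% of all probe sets did so. They lay entirely above for 1 of the 12, against 3.81% of all probe sets. The other 8 overlapped. The 4 were GUSB, SGSH, 1 of the 3 ARSB probe sets and, in the upward direction, IDUA. Between arrays of the same number, 4 of the 12 were lower in F3 in all 3 pairs, which holds for 17.8% of all probe sets. IDUA was higher in all 3 pairs, as were 12.2% of all probe sets. In total 9 of the 12 changes were negative, beside 54.6% over the table, and 4 of these 9 turned positive after quantile normalization was repeated.

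**Figure D3:**
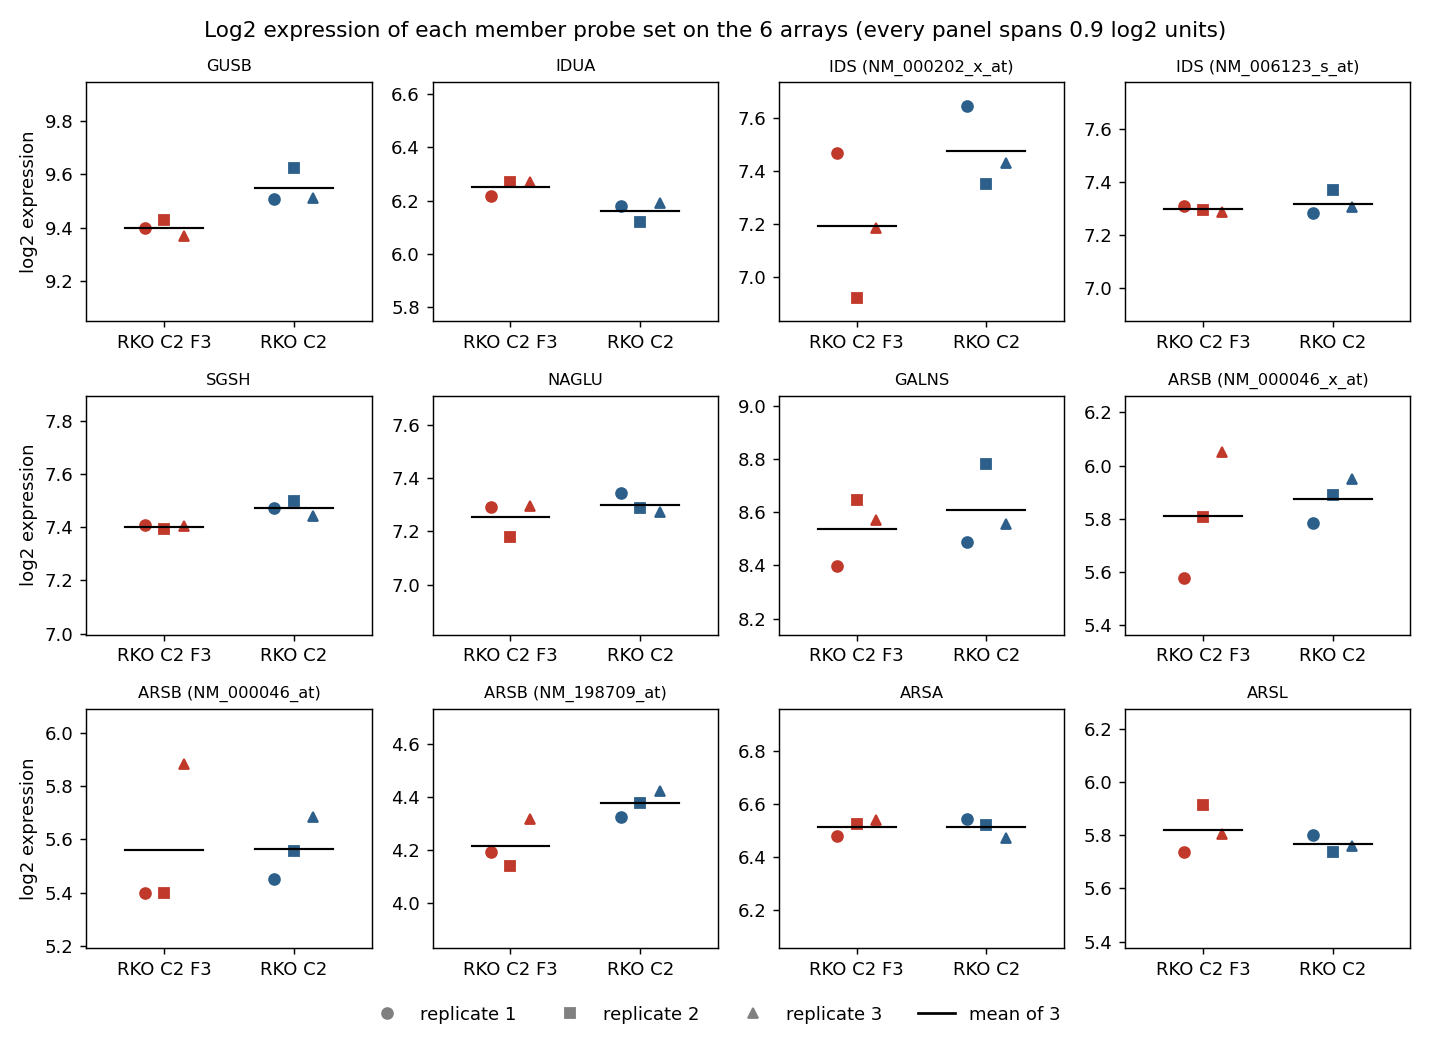
Log2 expression of each of the 12 probe sets on the 3 F3 arrays (red, left) and the 3 C2 arrays (blue, right), with the mean of each population as a line and the replicate number as the marker shape. GUSB, SGSH and IDUA show narrow groups that do not overlap, while the arrays overlap for IDS, GALNS and the ARSB probe sets on NM_000046.

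GUSB, beta-glucuronidase, removes terminal glucuronic acid from heparan, dermatan and chondroitin sulfate, and its transcript is widely used as a reference in quantitative PCR. Its log2 expression was 9.40, 9.43 and 9.37 on F3 arrays 1, 2 and 3, against 9.51, 9.63 and 9.51 on the C2 arrays. Every F3 array was below every C2 array, and the F3 arrays were also closer together. The means were 9.40 ± 0.03 in F3 and 9.55 ± 0.07 in C2 (SD, n = 3 each), which is -0.15 on the log2 scale (SE 0.056, 95% interval -0.28 to -0.02) and -9.87% on the linear scale. The change had an unadjusted limma p of 0.026, rank 38 in the table, and an adjusted p of 0.84. It kept its sign in all 12 alternatives, between -0.17 and -0.10.

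IDUA, alpha-L-iduronidase, removes terminal iduronic acid from heparan and dermatan sulfate, and its loss causes Hurler syndrome. It was at 6.22, 6.27 and 6.27 in F3, against 6.18, 6.12 and 6.19 in C2. All F3 arrays were above all C2 arrays, by a margin of hundredths between the nearest 2 arrays. The log2 change was 0.09 (SE 0.051, 95% interval -0.03 to 0.21, limma adjusted p = 0.97), and it stayed between 0.07 and 0.11 over the alternatives. In the RefSeq gene table SLC26A1 and LOC124900646 overlap the IDUA locus, CARD14 overlaps SGSH, and TRAPPC2L and LOC107983950 overlap GALNS, and whether the probes also bind their transcripts was not determined.

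IDS, iduronate 2-sulfatase, takes the sulfate off terminal iduronic acid before IDUA can act, and its loss causes Hunter syndrome. Its 2 probe sets are built on different RefSeq transcripts of the gene. The one on NM_000202, whose _x suffix marks probes that may also match other sequences, was at 7.46, 6.92 and 7.18 in F3, against 7.64, 7.35 and 7.43 in C2. F3 arrays 2 and 3 were below all C2 arrays, while F3 array 1 lay above C2 arrays 2 and 3. The mean was 7.19 ± 0.27 in F3 and 7.47 ± 0.15 in C2 (SD, n = 3 each), a log2 change of -0.28 (SE 0.13, 95% interval -0.59 to 0.02, limma adjusted p = 0.97). The fit that blocks on replicate number gave an SE of 0.063, an unadjusted p of 0.0035, against 0.064 without the block, and an adjusted p of 0.47. Array 1 was highest and array 2 lowest in both populations. The differences within the 3 numbers were -0.18, -0.43 and -0.25. Leaving out F3 replicate 1 gave -0.42 and leaving out F3 replicate 2 gave -0.15.

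The other IDS probe set, on NM_006123, was at 7.31, 7.30 and 7.29 in F3, against 7.28, 7.37 and 7.30 in C2. The populations overlapped within a range of 0.087, with a log2 change of -0.021 (95% interval -0.14 to 0.09). The 2 IDS probe sets thus differed in their changes by -0.26 (95% interval -0.61 to 0.09), a difference beyond the 95th percentile of 0.20 over the 143 pairs of probe sets that share a gene. It did not pass in a limma fit of within-array differences over those pairs (adjusted p = 0.74; adjusted p = 0.245 with the replicate block), where 0 pairs passed and 7 had an unadjusted p under 0.05. The IDS pseudogene IDSP1 is annotated near the gene, and which of these probes match it was not determined.

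SGSH and NAGLU act on heparan sulfate alone, and loss of either causes a form of Sanfilippo syndrome. SGSH, the sulfamidase that removes N-linked sulfate from glucosamine, was at 7.41, 7.39 and 7.40 in F3, against 7.47, 7.50 and 7.44 in C2. The F3 arrays lay within hundredths of each other (SD 0.0089) and below all C2 arrays (SD 0.028). The log2 change was -0.069 (SE 0.048, 95% interval -0.18 to 0.04, limma adjusted p = 0.97), or 0.012 after quantile normalization was repeated. NAGLU, which removes the terminal N-acetylglucosamine, was at 7.29, 7.18 and 7.29 in F3, against 7.34, 7.29 and 7.27 in C2. The populations overlapped, and the log2 change of -0.047 (95% interval -0.17 to 0.08) became 0.0027 after repeated quantile normalization.

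GALNS, the sulfatase that removes 6-sulfate from N-acetylgalactosamine and galactose in chondroitin and keratan sulfate, is deficient in Morquio syndrome. It was at 8.40, 8.65 and 8.57 in F3, against 8.49, 8.78 and 8.56 in C2. Array 1 was lowest and array 2 highest in both populations. The populations overlapped, and the means of 8.54 ± 0.13 in F3 and 8.61 ± 0.15 in C2 (SD, n = 3 each) gave a log2 change of -0.071 (95% interval -0.28 to 0.14, limma adjusted p = 0.998). Without C2 replicate 2 the change was 0.015.

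Promoters of many lysosomal genes carry an E-box that the transcription factor TFEB binds, with the core CACGTG. The RefSeq promoter table (GRCh38.p14, 250 bases before to 50 after a start site) held 8 windows for 6 of the 9 genes, namely IDUA, ARSB, GUSB, GALNS, ARSL and IDS. CACGTG, which reads the same on both strands, was found in 2 of the 8 windows, 1 of GALNS and 1 of ARSB, and in 7.26% of all 35116 windows of the table. The extended form TCACGTGA, which contains the first, was in the GALNS window only, and in 0.98% of all windows. Over the 1027 windows of genes on the array the shares were 7.4% for CACGTG and 1.655% for TCACGTGA. Both windows that hold the core are printed 5′ to 3′ on the minus strand with CACGTG in capitals, because they differ in its number: the GALNS window at chr16:88856898-88857197 has it 174 and 32 bases before the start site, and the ARSB window at chr5:78985909-78986208, the farther upstream of the 2 ARSB windows, has it 160 bases before.
GALNS: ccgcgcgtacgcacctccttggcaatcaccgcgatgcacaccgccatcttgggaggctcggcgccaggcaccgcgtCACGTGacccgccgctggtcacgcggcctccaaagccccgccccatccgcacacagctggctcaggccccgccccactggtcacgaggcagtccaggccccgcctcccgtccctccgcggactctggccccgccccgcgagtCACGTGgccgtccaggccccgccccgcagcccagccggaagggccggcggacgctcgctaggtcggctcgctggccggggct
ARSB: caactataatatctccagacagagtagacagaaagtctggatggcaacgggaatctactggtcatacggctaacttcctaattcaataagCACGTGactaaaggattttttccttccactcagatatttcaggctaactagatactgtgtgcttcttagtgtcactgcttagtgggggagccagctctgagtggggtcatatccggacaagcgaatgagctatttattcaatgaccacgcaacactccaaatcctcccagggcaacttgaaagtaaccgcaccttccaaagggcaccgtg
A match is a description of these letters, and binding was not measured. The log2 changes of the brightest probe sets were -0.071 for GALNS and -0.063 for ARSB, and neither passed. They were 0.015 for GALNS without C2 replicate 2 and 0.055 for ARSB without F3 replicate 1. The other ARSB probe sets were at -0.0023 and -0.16. Of the genes without a window, SGSH was at -0.069, NAGLU at -0.047 and ARSA at 0.0025. Among the genes whose windows lack the core, the changes ran from -0.28 for IDS to 0.09 for IDUA. A link between the motif and the changes was not tested.

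ARSB, arylsulfatase B, removes 4-sulfate from N-acetylgalactosamine in dermatan and chondroitin sulfate, and its loss causes Maroteaux-Lamy syndrome. Of its 3 probe sets, 2 are on the transcript NM_000046. The _x probe set was at 5.58, 5.81 and 6.05 in F3, against 5.78, 5.89 and 5.95 in C2. The other was at 5.40, 5.40 and 5.88 in F3, against 5.45, 5.56 and 5.68 in C2. F3 array 3 was the highest of all 6 arrays in both. Their log2 changes were -0.063 (95% interval -0.32 to 0.19) and -0.0023 (-0.30 to 0.30), with F3 SDs of 0.24 and 0.28. Single arrays decided these directions: without F3 replicate 3 the changes were -0.18 and -0.16, without F3 replicate 1 they were 0.055 and 0.078, and the second was 0.079 without F3 replicate 2 and 0.057 without C2 replicate 3.

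The third ARSB probe set, on the transcript NM_198709, was at 4.19, 4.14 and 4.32 in F3, against 4.32, 4.38 and 4.42 in C2. F3 arrays were below C2 arrays throughout, although F3 array 3 and C2 array 1 were equal to 2 decimals. The log2 change was -0.16 (SE 0.063, 95% interval -0.30 to -0.01), with an unadjusted limma p of 0.035 and an adjusted p of 0.84, and it stayed between -0.21 and -0.12 over the alternatives. The change of the _x probe set on NM_000046 minus this one was 0.096 (limma adjusted p = 0.92), and that of the other probe set on NM_000046 minus this one was 0.157 (limma adjusted p = 0.79). In all 3 ARSB probe sets array 3 was the highest in F3 and in C2.

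ARSA, whose loss causes metachromatic leukodystrophy, had the smallest range over the 6 arrays among the 12 probe sets, 0.068. It was at 6.48, 6.53 and 6.54 in F3, against 6.54, 6.52 and 6.47 in C2. The groups overlapped fully, with a log2 change of 0.0025 and a 95% interval from -0.11 to 0.12. ARSL, whose loss causes X-linked chondrodysplasia punctata, was at 5.74, 5.91 and 5.80 in F3, against 5.80, 5.74 and 5.76 in C2. F3 array 2 was the highest and F3 array 1 about level with the lowest C2 array. The log2 change was 0.053 (95% interval -0.09 to 0.19), and it was 0.0051 without F3 replicate 2.

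Levels of different genes are not ranked here, because the brightness of a probe set depends on its probes, and the table carries no detection call. All 12 probe sets lay above the lower quartile of mean log2 expression, 3.80, in the table. The lowest was ARSB on NM_198709, with means of 4.22 in F3 and 4.38 in C2, and whether it lay above background was not determined. Their SD within a population, pooled over F3 and C2, had a median of 0.060, from 0.021 for SGSH to 0.22 for IDS, beside 0.083 over all probe sets. The wide ones were the IDS probe set on NM_000202, the ARSB probe sets on NM_000046 and GALNS. Blocking on replicate number, the SE of the change was 0.063 in place of 0.13 for IDS on NM_000202, 0.068 in place of 0.11 for the ARSB _x probe set and 0.053 in place of 0.092 for GALNS. In 6 of the 12 probe sets the same number was highest in F3 and in C2: number 3 for all 3 ARSB probe sets, number 2 for GALNS and GUSB, and number 1 for the IDS probe set on NM_000202. Over the table this held for 42.3% of probe sets. Arrays of the same number share the suffix of their titles, which the labels do not explain, and its part in these values was not tested.

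The genes most alike to the 3 widest members were looked up by Pearson r over the 6 arrays among 1031 other named probe sets, as a description of arrays that share their number and their normalization. For ARSB the nearest was HNRNPD, an RNA-binding protein, with r = 0.99. HNRNPD was at 6.56, 6.79 and 7.09 in F3, against 6.78, 6.83 and 6.97 in C2, so array 3 was again highest in both populations. For GALNS it was DGCR2, with r = 0.99 and array 2 highest in both. For IDS it was FLT3, a receptor tyrosine kinase, with r = 0.94, but FLT3 ranged only between 3.73 and 3.90.

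Other genes of the pathway were taken from 4 lists of 42 genes in all, of which 26 were matched to a row by name and are called measured. None of the 26 passed in limma, and 17 had a negative change and 9 a positive one, with a median of -0.045, beside -0.0064 over all probe sets. Of 13 further enzymes that degrade glycosaminoglycans, 9 were measured, 0 passed and the median change was -0.023. GLB1, the lysosomal beta-galactosidase, which acts on keratan sulfate among other substrates, was at -0.11 (-0.15 to -0.017 with single arrays left out). The hyaluronidase gene HYAL1, below the lower quartile of mean level, was at 0.11 (0.047 to 0.20 with single arrays left out). HPSE2, a homologue of heparanase, was at 0.075, and at 0.0087 without F3 replicate 2. Of 11 further sulfatases and activators 5 were measured and 0 passed, with SULF2, an extracellular heparan sulfatase also below that quartile, at 0.056, and ARSF and ARSD, which lie near ARSL on the X chromosome, at -0.045 and 0.077. With single arrays left out SULF2 ran from 0.028 to 0.090, ARSF from -0.081 to -0.025 and ARSD from 0.012, without F3 replicate 2, to 0.17, without C2 replicate 2. The other ARSD probe set was at 0.15, with all F3 arrays above all C2 arrays and an adjusted p of 0.84.

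Of 12 further lysosomal glycosidases and their helper proteins 11 were measured and 0 passed. Their median change was -0.068, with 8 negative, and the genes named from this list were MANBA at -0.17, AGA at -0.12 and GALC at -0.12. MANBA removes beta-linked mannose, AGA cuts the bond between glycan and asparagine, and GALC, which lay below the lower quartile of mean level, removes galactose from galactosylceramide. With single arrays left out the change ran from -0.25 to -0.06 for MANBA, from -0.18 to -0.05 for AGA and from -0.19 to -0.06 for GALC. Of 6 genes for delivery by mannose 6-phosphate only IGF2R, the receptor that carries the tagged enzymes to the lysosome, was matched to a row by name. It was at 8.70, 8.88 and 8.89 in F3, against 9.14, 9.52 and 9.21 in C2. All F3 arrays were below all C2 arrays, with a log2 change of -0.46 (SE 0.10, 95% interval -0.70 to -0.23), and it did not pass (limma adjusted p = 0.36; adjusted p = 0.14 with the replicate block).

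**Figure D4:**
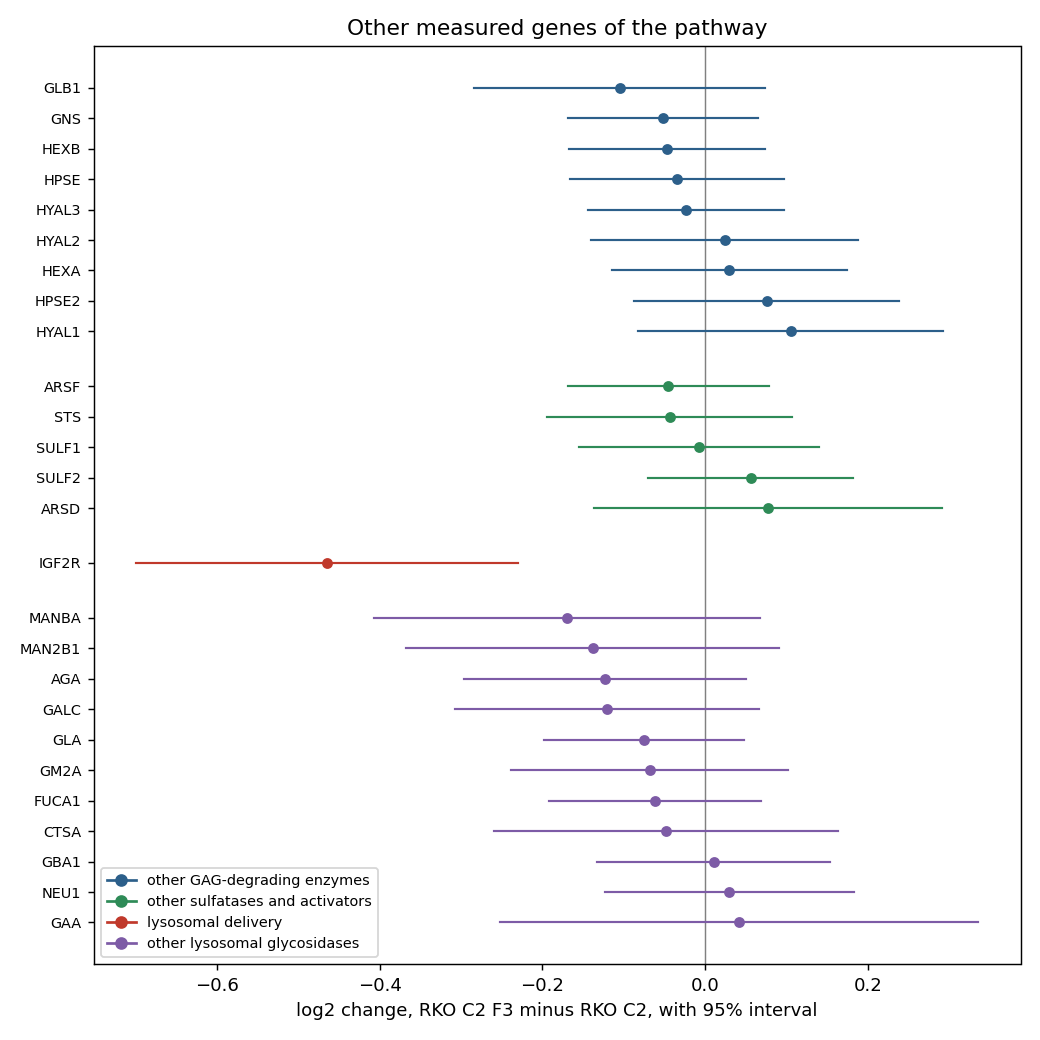
Log2 change, F3 minus C2, with its 95% interval from limma for the 26 other measured pathway genes, by list. Each gene is shown by its brightest probe set. Among these, IGF2R is the only one whose interval does not reach 0, and all the other changes lie between -0.17 and 0.11.

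The arrays were alike as a whole, with median log2 expression between 5.48 and 5.51, and their number limits the precision. Of 13 markers of colon epithelium 4 were measured, while KRT20, CDH1 and EPCAM were not analysed here. Their mean log2 level was 5.31 to 5.48 on the F3 arrays and 5.35 to 5.40 on the C2 arrays. MUC1 lay between 7.05 and 7.17 on the 6 arrays. MUC2, LGALS4 and FUT3 had means of 5.15, 4.68 and 4.63 in F3 and 5.12, 4.74 and 4.54 in C2. BGN, the brightest of the fibroblast and endothelial list, had means of 7.11 in F3 and 6.99 in C2. LUM and DCN of that list had means of 2.27 and 2.38 in F3 and 2.32 and 2.41 in C2. Of its 8 measured markers 6 had a negative change and 2 a positive one, with a median of -0.041. The 10 measured leukocyte markers had a mean log2 level of 3.85 to 3.90 on the F3 arrays and 3.85 to 3.89 on the C2 arrays. The 8 measured fibroblast and endothelial markers were at 3.93 to 3.98 on the F3 arrays and 3.97 to 4.03 on the C2 arrays. No marker of the 3 lists passed in limma. Below an unadjusted p of 0.05 lay 4 of the 10 leukocyte markers, with CD72 at 0.23, SIGLEC5 at 0.17, KLRC1 at -0.21 and CX3CR1 at -0.14, and 1 of the 8 others, ICAM2 at -0.20, beside 1.91% of all probe sets higher and 3.49% lower by that rule. CD72, KLRC1 and CX3CR1 lay below the lower quartile of mean log2 expression in the table, 3.80, and SIGLEC5 and ICAM2 did not. The part of the markers of the 3 lists in the results was not tested.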

How the data were processed

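Trizol-extracted total RNA of 6 samples was turned into biotinylated cRNA for Affymetrix arrays, per the labels' protocols. The authors deposited log2 values for each probe set on each array. Per the submitters' processing notes they come from RMA, which corrects background, gives arrays one distribution and combines probes; neither its version nor the probe set definitions is stated in the sources at hand. RMA removes a shift shared by most genes and shrinks changes of dim probe sets. In the deposited values the upper quartile still ran from 7.74 on F3 array 1 to 7.89 on C2 array 2.

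Rows were named through the RefSeq accession without version (GRCh38.p14 gene table): 1043 of 1259 matched 1 symbol. The other 216 stayed without a name, and whether they hold genes of the lists that are not counted as measured was not determined. F3 was compared with C2 in limma 3.58.1 (R 4.3.3; lmFit, eBayes, two-sided), Benjamini-Hochberg adjusted over all probe sets, threshold 0.05. Percent changes are the antilog of log2 changes. The script was tested on simulated data. That test drew independent arrays without an effect shared by replicate number, and its planted changes were larger than those of the member probe sets. Members and lists were chosen with earlier results of these data known. Where several probe sets stand for a gene, lists use the brightest. Genes named beyond the members are up to 3 per list with the smallest p, and the 1 most alike to each of the 3 widest members; 1 gene is not reported here and was left out of its list. The protein signature search planned for the sulfatases was not run.

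Whether the 3 arrays of a population stem from separate cultures is not given, and p-values therefore reflect only the spread among these samples, possibly a technical one. Replicate numbers are shared by the populations. After subtracting population means, arrays of one number correlated over probe sets with r = 0.52, 0.18 and 0.26, all above 0.1. Arrays of different numbers gave r from -0.38 to 0.15, the highest for F3 array 3 with C2 array 2. The numbers were therefore also fitted as a block. The fit without the block stayed the main one, so SEs, intervals and p-values are unpaired unless the block is named. The blocked values are given where they bear on a result.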

Additional observations from a re-analysis of the deposited data

How the results depend on the processing

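With the replicate block, array weights, dim probe sets left out, robust eBayes with a trend, median-centred or again quantile-normalized arrays, or single arrays left out, 0 of the 12 probe sets and 0 of the other pathway genes (for which the block, the filter and single arrays left out were run) passed, and the smallest adjusted p of the 12 was 0.47, with the replicate block. Pairs of probe sets gave 0 calls with the block and with single arrays left out. The replicate block changed no call of these genes. Over the whole table it gave 2 calls in place of 1, as did an adjusted p under 0.10 (2), while the ordinary two-sample test gave 0 and single arrays left out gave 0 to 2. That test called 0 of the 12 as well, with 3 at an unadjusted p under 0.05. The median change of the 9 genes was -0.063, 0.0027 with repeated quantile normalization and -0.070 to -0.000705 with single arrays left out.

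Of 144 values, 12 alternatives for each of the 12 probe sets, 130 kept their direction, and 5 probe sets kept it throughout: GUSB, IDUA, ARSL, the IDS probe set on NM_000202 and the ARSB probe set on NM_198709. Repeated quantile normalization gave 0.0036 for the ARSB probe set on NM_000046 without the _x suffix, 0.012 for SGSH, 0.0027 for NAGLU and 0.055 for the IDS probe set on NM_006123. Median centring gave 0.013 for that ARSB probe set. Single arrays left out gave -0.16 to 0.079 for it, -0.18 to 0.055 for the ARSB _x probe set, -0.13 to 0.015 for GALNS, -0.017 to 0.020 for ARSA and -0.040 to 0.0037 for the IDS probe set on NM_006123. The cause was not tested. With 3 arrays a population, intervals reach 0.11 to 0.30 on either side of a change.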
